A study of Mus musculus with 6 samples.

Results

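The results concern 10 genes of the aryl hydrocarbon receptor pathway and of drug efflux in MB21 cells given the benzarone derivative DS-1-38. They were chosen by symbol as Ahr, Arnt, Tiparp, Cyp1a1, Cyp1b1, Cyp2s1, Por, Abcb1a, Abcb1b and Abcg2, and all 10 were found among the 55416 genes of the count table. MB21 cells come from a mouse medulloblastoma that is Ptch mutant (Ptch holds hedgehog signalling in check), and they were grown without attachment in DMEM/F12 medium with B27. DS38 cells received DS-1-38 at 10 uM for 1 day, and DMSO cells received the vehicle for the same time. Both groups are the same line with the same ptch genotype, and each had 3 libraries. The study's design text names 5 days, whereas the titles and the treatment protocol give 1 day.

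The aryl hydrocarbon receptor, AHR, is a ligand-activated transcription factor that waits in the cytoplasm with chaperones. When a planar aromatic ligand binds, AHR enters the nucleus, pairs with ARNT and binds DNA sites with the core GCGTG, which switches on Cyp1a1, Cyp1b1, Tiparp and other genes of foreign-compound metabolism. Cytochromes P450 draw electrons from the reductase encoded by Por, and efflux pumps of the ABC family, encoded by Abcb1a, Abcb1b and Abcg2, expel many drugs from cells and guard the blood-brain barrier.

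Library totals were 60434089 to 84044428 counts in DS38 and 38840296 to 50014681 in DMSO, so every DS38 library was the deeper. Levels are CPM, the counts scaled to library size with TMM factors, given as mean ± SD of 3 libraries, and RPKM values also divide by gene length. Along the second principal component (17.9% of the variance) DMSO replicate 3 lay apart from the other 5 libraries. The labelled cell type was checked on 10 markers of granule neuron precursor-like medulloblastoma, all of which were tested. Of these 2 were higher and 6 lower in DS38, beside 12.9% higher and 11.7% lower among all genes tested. Most of the 10 lay at 100 CPM or more, where 11.4% of genes tested were called higher and 29.3% lower. The summed level of the 10 markers was 2700 to 2716 CPM in DS38 and 2757 to 2835 CPM in DMSO, and Ccnd1 and Zic1 were the most abundant. Ccnd1 averaged 631 ± 7.94 CPM in DS38 and 689 ± 6.94 in DMSO, and Zic1 averaged 623 ± 15.5 CPM in DS38 and 666 ± 21.7 in DMSO. The 2 higher markers were Atoh1 (log2 fold change 0.33 ± 0.03, SE; edgeR adjusted p = 3.567e-08) and Barhl1 (0.27 ± 0.03; edgeR adjusted p = 7.532e-07). Of the 6 lower, Neurod1 fell most (-0.37 ± 0.04; edgeR adjusted p = 1.882e-07). Atoh1, Barhl1, Neurod1 and Ccnd1 were called in all 15 alternative settings, and Zic1 in 10 of 15. In bulk samples such as these, fewer cells that express a gene and less RNA per cell cannot be told apart.

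Arnt, Tiparp and Por were expressed at moderate to high levels in both groups, whereas Ahr, Cyp1b1 and Abcg2 were very low and Cyp1a1, Cyp2s1 and Abcb1a were near 0. Per length, Tiparp was highest at 18.4 to 19.3 RPKM over the 6 libraries, above 83.2% of all genes tested. Por followed at 13.2 to 15.2 RPKM and Arnt at 9.65 to 10.7 RPKM, and none of these 3 ranges overlapped. Abcb1b stood alone in the middle at 0.698 to 0.912 RPKM. Ahr (0.0698 to 0.108 RPKM), Cyp1b1 (0.0321 to 0.123 RPKM) and Abcg2 (0.0226 to 0.0784 RPKM) were far lower. These 3 could not be ordered by their ranges, which all overlapped. Cyp1a1, Cyp2s1 and Abcb1a had 4, 3 and 2 counts in all libraries together.

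**Figure D1:**
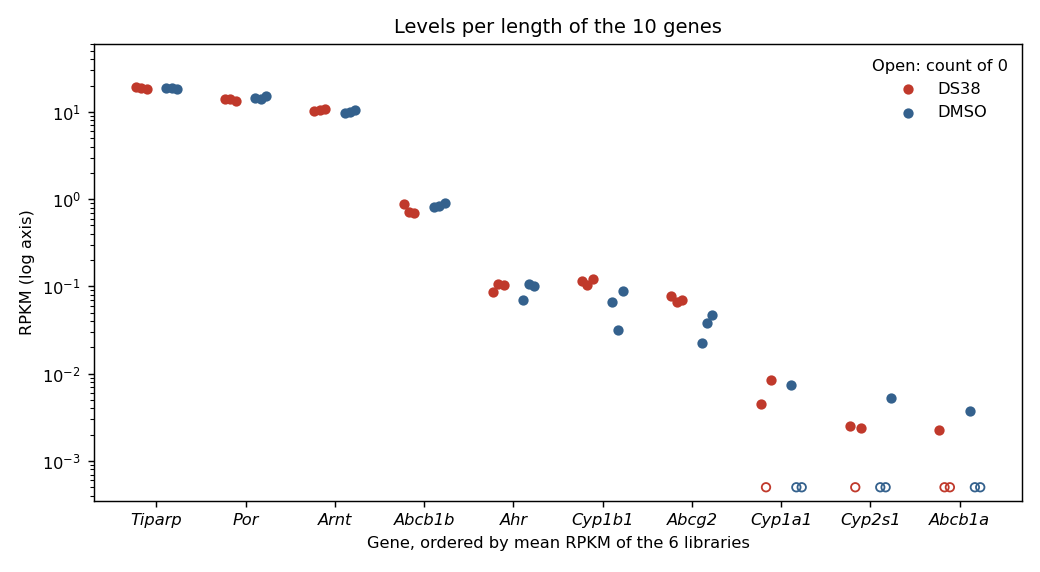
Levels per length (RPKM, log axis) of the 10 genes, with 1 point per library, DS38 in red left of DMSO in blue, and genes ordered by their mean over the 6 libraries. Open circles at the bottom are libraries with a count of 0, and the genes form a high set of 3, Abcb1b alone, a low set of 3 and a set of 3 with at most 2 counts in any library.

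Of the 10 genes 7 passed the filter on low counts and were tested, and 2 of them rose with DS38, Cyp1b1 and Abcg2. No gene of the 7 fell by edgeR's quasi-likelihood test with adjustment over all genes, 1 had an unadjusted p under 0.05 in that direction (Por), and DESeq2 and limma-voom also called 0 lower. Among all 17679 genes tested, 24.5% were called, 12.9% higher and 11.7% lower in DS38. With library size alone as the scaling, calls over all genes were 3289 higher and 1543 lower, or 68.1% higher against 52.4%, and the 7 genes then held 3 higher and 0 lower. The groups did not overlap for 3 of the 7 (Cyp1b1 and Abcg2 higher, Por lower), beside 38.6% of all genes tested (20.7% higher and 17.9% lower), a share near that of the 7. The median log2 fold change of the 7 was 0.07, against 0.004 over all genes tested.

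**Figure D2:**
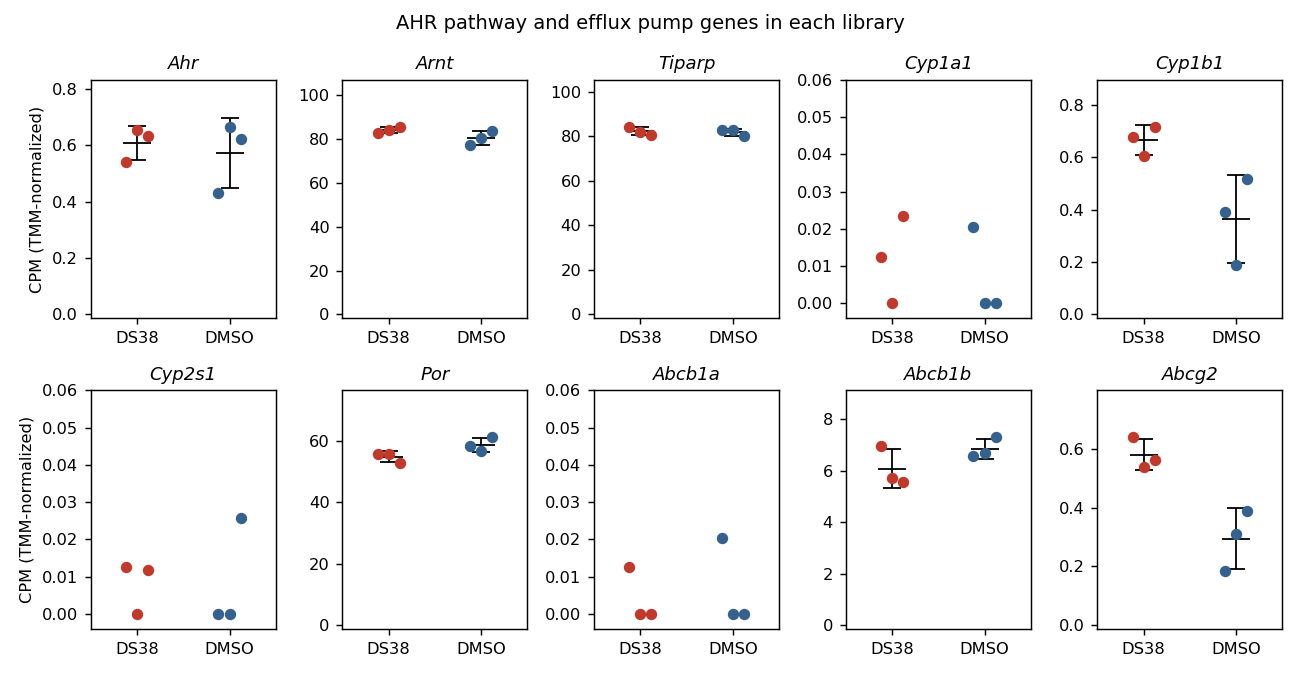
Level (CPM, linear axis from 0) of each of the 10 genes in every library, DS38 in red left of DMSO in blue, with the mean and SD of 3 libraries as black lines for the 7 genes tested. All DS38 points lie above all DMSO points for Cyp1b1 and Abcg2 and below them for Por, whereas the groups overlap for the others.

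Ahr itself, which encodes the receptor, was barely read and did not differ detectably. It was at 0.539, 0.652 and 0.634 CPM in DS38 replicates 1 to 3, against 0.430, 0.666 and 0.620 CPM in DMSO replicates 1 to 3. The groups overlapped, and DMSO replicate 1 was the lowest library. These levels rest on 137 counts in DS38 and 77 in DMSO, and the log2 fold change was 0.09 ± 0.27 (SE; edgeR adjusted p = 0.846), with a 95% interval of -0.47 to 0.65 that allows anything between a 0.722-fold and a 1.57-fold level. Without DMSO replicate 1 the log2 fold change turned to -0.09. A lincRNA on the opposite strand, Gm48236, overlaps 127 exonic bases of Ahr and had 1 count in DS38 and 0 in DMSO.

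Arnt, which encodes the nuclear partner that AHR shares with hypoxia factors, was abundant and steady. Its level was 82.8, 84.0 and 85.6 CPM in DS38 replicates 1 to 3, against 77.3, 80.3 and 83.5 CPM in DMSO replicates 1 to 3. DMSO replicate 3 lay within the DS38 range, while the other DMSO libraries lay below it. The log2 fold change was 0.07 ± 0.03 (SE; edgeR adjusted p = 0.154; 95% interval -0.002 to 0.14). It passed without DMSO replicate 3 (log2 fold change 0.09; edgeR adjusted p = 0.0404) and with library size alone (0.10; adjusted p = 0.0358). In RPKM, Arnt exceeded Ahr by a factor of 107 ± 9.94 in DS38 and 112 ± 23.8 in DMSO (SD, n = 3 each).

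Of the AHR targets, Cyp1a1, whose enzyme oxidizes polycyclic aromatic hydrocarbons and whose transcript is the usual readout of an active receptor, was close to 0 in both groups. It had 1, 0 and 2 counts in DS38 replicates 1 to 3 and 1, 0 and 0 in DMSO replicates 1 to 3. Pooled over a group this is 0.0133 CPM in DS38 (exact Poisson 95% interval 0.00273 to 0.0388) and 0.00737 CPM in DMSO (0.000187 to 0.0411). Such intervals cover counting error only, and a difference was not detectable at this depth. The neighbouring target Cyp1a2 had a count of 0 in every library, which at 3 counts of the summed total allows up to 0.00829 CPM. Cyp2s1, a P450 of tissues outside the liver, had 1, 0 and 1 counts in DS38 and 0, 0 and 1 in DMSO, and it was not tested either. A lincRNA opposite Cyp2s1, Gm26707, overlaps 260 of its exonic bases and had 7 counts in DS38 and 0 in DMSO.

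Cyp1b1, which encodes a P450 of steroid and hydrocarbon oxidation expressed in many tissues outside the liver, rose with DS38 from a very low base. It was at 0.677, 0.603 and 0.716 CPM in DS38 replicates 1 to 3, against 0.389, 0.187 and 0.517 CPM in DMSO replicates 1 to 3. All DS38 libraries lay above all DMSO libraries, and the DMSO libraries were spread widely, with replicate 2 lowest. It averaged 0.666 ± 0.0572 CPM in DS38 and 0.364 ± 0.166 CPM in DMSO (SD, n = 3 each), which is 1.87-fold (95% interval 1.18 to 2.96), or 0.90 ± 0.32 in log2 units (SE; edgeR adjusted p = 0.0427). The raw counts were 54, 37 and 61 in DS38 and 19, 9 and 20 in DMSO. The pooled level was 0.672 CPM in DS38 (exact Poisson 95% interval 0.569 to 0.788) and 0.354 CPM in DMSO (0.261 to 0.469). This call depended on the processing and on single libraries: it was lost with DESeq2 (adjusted p = 0.0648), after thinning all libraries to the smallest total (0.0758), and when any single library except DMSO replicate 3 was left out. Without DMSO replicate 2 the log2 fold change was 0.58 (edgeR adjusted p = 0.210), and without DMSO replicate 3 it was 1.20 (edgeR adjusted p = 0.0110).

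Tiparp, which encodes a mono-ADP-ribosyltransferase that AHR induces and that in turn restrains AHR, held its level within a narrow interval. It was at 84.3, 81.9 and 80.7 CPM in DS38 replicates 1 to 3, against 82.6, 82.8 and 80.0 CPM in DMSO replicates 1 to 3. The libraries of both groups were interleaved. Its log2 fold change was 0.01 ± 0.03 (SE; edgeR adjusted p = 0.893), and the 95% interval of -0.06 to 0.07 spans 0.960-fold to 1.05-fold. Its sign turned to -0.01 without DS38 replicate 1 and without DMSO replicate 3. The overlapping pseudogene 4931440P22Rik, on the opposite strand, shares 223 exonic bases with Tiparp and had 223 counts in DS38 and 111 in DMSO, beside 18617 counts of Tiparp in DS38 and 11112 in DMSO.

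The sequences upstream of these 3 AHR targets are shown because in the same cells Cyp1a1 was near 0, Cyp1b1 low and Tiparp high. Each run is the 250 bases before the RefSeq transcription start on GRCm38.p6, an older build than the authors' GRCm39, written in the direction of the gene. Capitals mark the core GCGTG on either strand, which reads as CACGC when it lies on the opposite one. The window of Cyp1a1 is chr9:57697363-57697612 on the plus strand, that of Cyp1b1 is chr17:79715062-79715311 on the minus strand, and that of Tiparp is chr3:65528197-65528446 on the plus strand.
Cyp1a1: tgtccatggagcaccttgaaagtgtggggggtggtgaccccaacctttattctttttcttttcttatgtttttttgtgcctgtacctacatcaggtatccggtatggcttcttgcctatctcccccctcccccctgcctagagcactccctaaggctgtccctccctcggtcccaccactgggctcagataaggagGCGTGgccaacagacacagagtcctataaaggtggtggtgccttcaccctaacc
Cyp1b1: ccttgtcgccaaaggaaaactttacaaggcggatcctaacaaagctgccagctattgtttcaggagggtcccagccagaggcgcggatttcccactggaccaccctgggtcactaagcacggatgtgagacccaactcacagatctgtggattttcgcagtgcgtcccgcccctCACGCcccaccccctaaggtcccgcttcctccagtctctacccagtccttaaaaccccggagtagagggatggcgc
Tiparp: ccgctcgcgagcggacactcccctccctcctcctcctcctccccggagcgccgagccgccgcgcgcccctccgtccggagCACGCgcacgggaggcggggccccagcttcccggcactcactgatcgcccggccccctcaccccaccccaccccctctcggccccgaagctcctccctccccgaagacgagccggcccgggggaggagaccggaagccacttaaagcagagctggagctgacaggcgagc

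In these windows the core began 54 bases before the start in Cyp1a1, 76 bases before it in Cyp1b1 and 170 bases before it in Tiparp, on the gene's own strand in Cyp1a1 and on the opposite strand in the other two. Of the 10 genes 9 had a RefSeq window, and 5 of them held the core, with Arnt and Por the others. Por held 3 copies. Cyp2s1, Abcb1a, Abcb1b and all 3 windows of Abcg2 held none. Among all 32851 windows of the same length 28.2% held the core on either strand, so a match describes these letters and is not evidence of binding. Binding was not tested. The well-known receptor sites of Cyp1a1 lie farther upstream than this window reaches.

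Por, which encodes the reductase that passes electrons from NADPH to microsomal cytochromes P450, was slightly lower with DS38 but did not pass. It was at 55.9, 56.0 and 52.9 CPM in DS38 replicates 1 to 3, against 58.5, 56.7 and 61.2 CPM in DMSO replicates 1 to 3. Every DS38 library lay below every DMSO library, though DS38 replicate 2 and DMSO replicate 2 nearly met. The log2 fold change was -0.10 ± 0.04 (SE; edgeR adjusted p = 0.0642), a 0.935-fold level with a 95% interval of 0.886 to 0.987 before adjustment. It passed with RLE scaling (edgeR adjusted p = 0.0462), among genes with at least 5 CPM in 3 libraries (0.0387) and without DMSO replicate 2 (0.0471).

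The pumps differed from each other in level more than in response. Mice carry a pair of genes for P-glycoprotein, the broad drug efflux pump that a single gene encodes in humans. Of this pair Abcb1b supplied nearly all reads, with 1379 counts in DS38 and 924 in DMSO, while Abcb1a had 1 count in each group. Abcb1a is the form known from brain capillary endothelium, where it forms part of the blood-brain barrier. Endothelial and pericyte markers summed to 1.09 to 1.23 CPM in DS38 and 1.01 to 1.48 CPM in DMSO over 9 genes, of which Cldn5, Kdr, Slco1a4 and Rgs5 had a count of 0 in every library. The most abundant of that list were Pecam1, at 0.531 ± 0.00628 CPM in DS38 and 0.448 ± 0.260 in DMSO, and Tek, at 0.333 ± 0.0244 CPM in DS38 and 0.431 ± 0.171 in DMSO.

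The beginnings of the coding sequences of Abcb1b and Abcb1a are shown because reads of such close copies can be shared. Each run is coding bases 1 to 90 of the longest protein-coding GENCODE M21 transcript of its gene, from the start codon. The coding sequence was taken as that transcript's longest run in frame from a start to a stop codon. Both genes lie on chromosome 5, and capitals mark the 4 positions at which the copies differ.
Abcb1b: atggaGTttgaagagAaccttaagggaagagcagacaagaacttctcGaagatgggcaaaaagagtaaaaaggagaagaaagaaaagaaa
Abcb1a: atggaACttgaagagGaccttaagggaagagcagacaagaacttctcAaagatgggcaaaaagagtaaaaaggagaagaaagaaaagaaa

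Over the whole coding sequence the copies were 88.2% identical, and Abcb1b was 74.7% identical to the phospholipid pump gene Abcb4 beside them. Of all windows of 50 bases in the Abcb1b transcript 18.0% also occurred in Abcb1a, as did 8.72% of windows of 100 bases, and the longest shared run was 338 bases. The other windows distinguish the copies. How reads that match both were counted is not given in the sources used here. The 2 counts of Abcb1a therefore come from reads assigned to it, and its level is uncertain to the extent that shared reads were dropped.

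Abcb1b was at 6.95, 5.71 and 5.58 CPM in DS38 replicates 1 to 3, against 6.55, 6.70 and 7.29 CPM in DMSO replicates 1 to 3. DS38 replicate 1 lay inside the DMSO range and the other DS38 libraries lay below it. The log2 fold change was -0.17 ± 0.09 (SE; edgeR adjusted p = 0.214), with a 95% interval of -0.36 to 0.03. Without DS38 replicate 1 it was -0.28 and came near the threshold (edgeR adjusted p = 0.0508), and without DS38 replicate 3 it was -0.10 (edgeR adjusted p = 0.535). The antisense gene Gm5106 overlaps 143 exonic bases of Abcb1b and had 4 counts in DS38 and 9 in DMSO.

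Abcg2, which encodes the pump first known as breast cancer resistance protein, rose with DS38 and had the smallest adjusted p of the 7 genes tested. It was at 0.639, 0.538 and 0.563 CPM in DS38 replicates 1 to 3, against 0.184, 0.312 and 0.388 CPM in DMSO replicates 1 to 3. The groups did not overlap, and the nearest libraries were DS38 replicate 2 and DMSO replicate 3. It averaged 0.580 ± 0.0527 CPM in DS38 and 0.295 ± 0.103 CPM in DMSO (SD, n = 3 each), which is 2.00-fold (95% interval 1.26 to 3.19), or 1.00 ± 0.32 in log2 units (SE; edgeR adjusted p = 0.0266). The counts behind this were 51, 33 and 48 in DS38 and 9, 15 and 15 in DMSO. Pooled levels were 0.583 CPM in DS38 (exact Poisson 95% interval 0.488 to 0.692) and 0.288 CPM in DMSO (0.205 to 0.393). The call held with DESeq2, limma-voom and thinning, but only the omission of DMSO replicate 3 left it past the threshold (edgeR adjusted p = 0.0142). Without DMSO replicate 1 the log2 fold change was 0.74 (edgeR adjusted p = 0.141), and without any of DS38 replicates 1 to 3 or DMSO replicate 2 the adjusted p was 0.0521 to 0.0979. Abcg2 met the CPM minimum of the filter in 3 DS38 and 2 DMSO libraries, whereas Cyp1b1 met it in all 6.

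Per length, the level of Abcb1b relative to Abcg2 was 10.7 ± 0.511 in DS38 and 25.8 ± 9.19 in DMSO (SD, n = 3 each). P-glycoprotein transcripts thus outnumbered those of Abcg2 in every library of both groups.

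**Figure D3:**
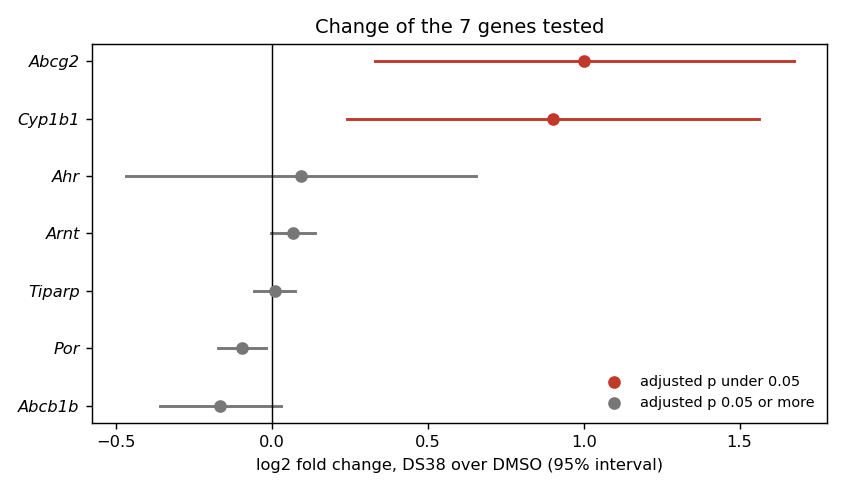
Log2 fold change of DS38 over DMSO for the 7 genes tested, with points for the estimate and lines for the 95% interval, red where the edgeR adjusted p was under 0.05. The intervals of Abcg2 and Cyp1b1 are wide and lie above 0, those of Tiparp and Arnt are narrow and lie near 0, and that of Ahr is wide and spans 0.

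Both genes that rose lay below 1 CPM, where few genes were called. Of 4416 genes tested with a mean below 1 CPM, 2.51% were called higher and 3.65% lower, and the median size of these calls was 1.09 on the log2 scale. Of 6610 genes between 10 and 100 CPM, the range of Arnt, Tiparp and Por, 20.3% were called higher and 11.8% lower, with a median size of 0.190. These ranges of level were chosen after the values were seen. A difference of the size measured in Por was smaller than the SE of Ahr, 0.27, and was not detectable there at this depth.

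**Figure D4:**
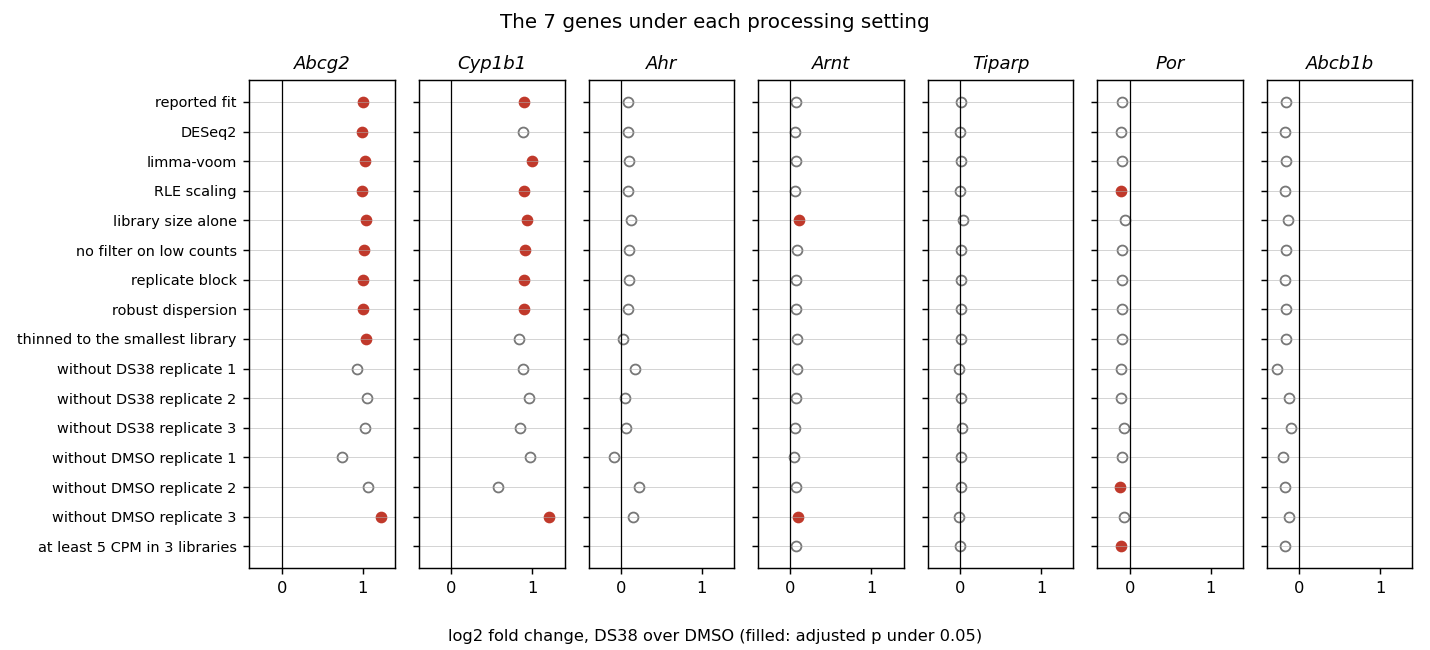
Log2 fold change (x axis, the same range in each panel) of the 7 genes under the reported fit and 15 alternatives, listed down the page and filled red where the adjusted p was under 0.05. Cyp1b1 and Abcg2 keep their direction in all settings in which they were tested and lose the threshold when most single libraries are left out, and neither reached 5 CPM.

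Markers of other cell types were mostly low, apart from Vim, Pdgfra, Slc1a2 and Slc1a3. The 6 fibroblast markers summed to 218 to 230 CPM in DS38 and 231 to 239 CPM in DMSO, nearly all from Vim (151 ± 5.33 CPM in DS38 and 163 ± 3.86 in DMSO) and Pdgfra (70.0 ± 2.59 CPM in DS38 and 71.5 ± 0.405 in DMSO). Of the 4 tested 1 rose and 1 fell. Col1a1, a collagen gene and the one that rose, averaged 0.822 ± 0.258 CPM in DS38 and 0.373 ± 0.168 in DMSO (edgeR adjusted p = 0.0122, and up to 0.0980 without DS38 replicate 1 or DMSO replicate 2), the same order of groups as for Cyp1b1, which fibroblasts also express. Lum, a matrix proteoglycan gene, had 244 counts in DS38 and 97 in DMSO without overlap of the groups, and its log2 fold change of 0.60 ± 0.23 missed the threshold (edgeR adjusted p = 0.0637). Col1a2, the partner chain of Col1a1, had 7 counts in DS38 and 5 in DMSO, and Dcn, another such gene, had 11 counts in DS38 and 8 in DMSO. The part of such cells in the rise of Cyp1b1 was not tested. Astrocyte markers summed to 389 to 401 CPM in DS38 and 447 to 470 in DMSO, mostly from the glutamate transporters Slc1a2 (249 ± 3.86 CPM in DS38 and 309 ± 11.4 in DMSO) and Slc1a3 (139 ± 3.18 CPM in DS38 and 144 ± 4.29 in DMSO), with Gfap higher and Slc1a2 lower of 3 tested. Gfap was not called after thinning or without DS38 replicate 2 or DMSO replicate 1 (highest edgeR adjusted p = 0.0909). Oligodendrocyte markers summed to 70.6 to 74.8 CPM in DS38 and 74.1 to 75.1 in DMSO, led by Pdgfra, and Mag was at 0 in every library. Microglia and macrophage markers summed to 1.42 to 1.96 CPM in DS38 and 1.66 to 1.73 in DMSO, led by Cd68 (1.61 ± 0.271 CPM in DS38 and 1.46 ± 0.235 in DMSO) and Aif1 (0.0688 ± 0.0175 CPM in DS38 and 0.124 ± 0.0826 in DMSO). None of the 3 endothelial, 4 oligodendrocyte or 1 microglial markers tested was called in either direction by edgeR, DESeq2 or limma-voom, and 0 of them had an unadjusted edgeR p under 0.05.

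The genes around the 10 were read from 8 lists of the same pathway and its relatives. Of 106 listed genes 75 were tested, and 18 rose and 8 fell, so 34.7% were called beside 24.5% of all genes. The share called varied with level over all genes. It was 2.51% higher and 3.65% lower below 1 CPM, against 20.3% higher and 11.8% lower between 10 and 100 CPM. The lists were not matched to all genes by level, so the 34.7% does not show an excess of calls in them. Without DMSO replicate 3 these counts were 19 and 10, and 5 genes fell when DS38 replicate 1 or DMSO replicate 2 was left out.

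Around the receptor, the chaperones that hold AHR in the cytoplasm were abundant. Of 9 tested of 12 chaperones, repressors and ARNT partners 0 rose and 1 fell (0 and 2 at an unadjusted edgeR p under 0.05, and 0 and 1 with DESeq2 and with limma-voom), and the median log2 fold change was -0.03. The one that fell was Hsp90aa1, the inducible HSP90 chaperone, at 2122 ± 30.8 CPM in DS38 and 2316 ± 51.7 in DMSO (log2 fold change -0.13 ± 0.03; edgeR adjusted p = 0.00184). Hif1a, the hypoxia factor that competes for ARNT, was at 386 ± 12.9 CPM in DS38 and 403 ± 9.07 in DMSO and did not pass (edgeR adjusted p = 0.130), though it passed in 1 of 15 alternatives. Without DMSO replicate 3 the list had 0 higher and 2 lower. Ahrr, the receptor's repressor and target, had 14, 3 and 5 counts in DS38 replicates 1 to 3 and 5, 1 and 0 in DMSO replicates 1 to 3. Most of its 22 counts in DS38 came from replicate 1, the groups overlapped in CPM, and it was not tested.

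Of the other AHR-induced genes 7 of 9 were not tested, because they had at most 22 counts in all libraries together. Gsta1 as well as Cyp1a2 had 0 in every library. Nqo1, the quinone reductase shared by AHR and NRF2, had 15, 16 and 24 counts in DS38 and 7, 7 and 1 in DMSO, with no overlap of the groups. It reached the CPM minimum of the filter, 0.181, in the 3 DS38 libraries and in 0 DMSO libraries, so it was tested through the group where it was higher. Its log2 fold change of 1.13 ± 0.49 missed the threshold (edgeR adjusted p = 0.100), and it could be tested in 10 of 15 alternatives. Serpinb2, a protease inhibitor gene, had 2, 0 and 3 counts in DS38 and 5, 5 and 7 in DMSO, again without overlap but lower in DS38, and was not tested. Nfe2l2, which encodes NRF2 itself, rose to 66.7 ± 2.11 CPM in DS38, against 60.9 ± 1.09 in DMSO (log2 fold change 0.13 ± 0.03; edgeR adjusted p = 0.00743), and this was lost without DS38 replicate 3 (edgeR adjusted p = 0.0586). Of the 2 tested 1 rose and 0 fell (0 lower at an unadjusted edgeR p under 0.05 and 0 with DESeq2 and limma-voom).

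Among the ADP-ribosyltransferases related to Tiparp and the macrodomain enzymes that reverse them, all 16 were tested, 2 rose and 0 fell (1 lower at an unadjusted edgeR p under 0.05, and 0 with DESeq2 and limma-voom). The median log2 fold change was 0.03. The list had 3 higher and 1 lower without DMSO replicate 3, 1 higher and 0 lower without DS38 replicate 2, and 4 higher and 0 lower with library size alone. Parp3, a DNA-break sensor, averaged 12.4 ± 0.469 CPM in DS38 and 8.49 ± 0.247 in DMSO (log2 fold change 0.55 ± 0.07; edgeR adjusted p = 3.186e-06). Macrod1, a mitochondrial hydrolase of ADP-ribose marks, rose by 0.64 ± 0.17 on the log2 scale (edgeR adjusted p = 0.00736), and did not pass without DS38 replicate 2 (edgeR adjusted p = 0.0632).

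In the electron transfer and heme list, which holds partners of Por together with other reductases and heme genes, 4 of 13 rose and 2 fell, with a median of -0.02. The share of all genes tested was 12.9% higher and 11.7% lower, and this list was not matched to them by level. Cyb5r1, a cytochrome b5 reductase, changed most, at 48.3 ± 0.908 CPM in DS38 and 26.6 ± 1.87 in DMSO (log2 fold change 0.87 ± 0.05; edgeR adjusted p = 2.439e-11). Hmox1, which breaks down heme, rose by 0.54 ± 0.06 and Pgrmc1, a heme-binding protein that associates with P450 enzymes, by 0.18 ± 0.03. Sqle, the sterol enzyme that takes its electrons from Por, fell by 0.29 ± 0.03, and Cyb5b, the mitochondrial outer membrane cytochrome b5, fell by 0.16 ± 0.03 on the log2 scale.

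Of 19 other cytochromes P450, 9 were tested, 4 rose and 2 fell, with a median of 0.12. Over all genes tested 12.9% were called higher and 11.7% lower, and the list was not matched to them by level. Cyp51, the lanosterol demethylase and the most abundant P450 of the list, averaged 281 ± 4.53 CPM in DS38 and 375 ± 8.57 in DMSO (log2 fold change -0.42 ± 0.03; edgeR adjusted p = 1.187e-09), and Cyp26b1, which degrades retinoic acid, fell by 0.12 ± 0.04. Cyp39a1, an oxysterol hydroxylase, rose by 0.21 ± 0.04, Cyp4f13 by 0.25 ± 0.07 and Cyp4v3, a fatty acid hydroxylase, by 0.93 ± 0.29 on the log2 scale. Cyp4f13 was not called without DS38 replicate 3 or DMSO replicate 2 (highest edgeR adjusted p = 0.0624). Cyp4v3 was not called without DS38 replicate 3 or DMSO replicate 1 or with limma-voom (highest adjusted p = 0.247). Cyp26b1 was not called in 6 of 15 alternatives, namely library size alone, no filter, and without DS38 replicates 2 or 3 or DMSO replicates 1 or 2 (highest edgeR adjusted p = 0.128). Without DS38 replicate 3 the list had 1 higher and 1 lower, and without DMSO replicate 1 or DMSO replicate 2 it had 2 higher and 1 lower. Without DS38 replicate 2 the number lower was 1. Drug-metabolizing P450 genes of the liver were near 0, with 0 counts of Cyp3a11 in every library and 1 count of Cyp2b10 in DS38 and 0 in DMSO.

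Of the other drug and lipid efflux transporters 10 of 16 were tested, 2 rose and 0 fell (0 lower at an unadjusted edgeR p under 0.05, and 0 with DESeq2 and limma-voom), and the median was 0.05. Without DMSO replicate 3 the list had 3 higher and 0 lower, and without DMSO replicate 1 it had 1 lower. Abcc1, the multidrug resistance protein that exports glutathione conjugates, averaged 90.9 ± 1.09 CPM in DS38 and 83.3 ± 0.970 in DMSO (log2 fold change 0.13 ± 0.03; edgeR adjusted p = 0.00385). Abca3, a lipid transporter, averaged 35.9 ± 0.838 CPM in DS38 and 29.8 ± 1.62 in DMSO (log2 fold change 0.27 ± 0.04; edgeR adjusted p = 1.393e-04). Abcb4, the neighbour of the P-glycoprotein genes, was at 0.641 CPM in DS38 and 0.645 CPM in DMSO and did not pass (edgeR adjusted p = 0.912).

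In the transporters of organelle membranes, 3 of 11 tested rose and 3 fell, beside 12.9% higher and 11.7% lower among all genes tested. They were not matched to all genes by level. Abcd4, a lysosomal carrier of cobalamin, rose by 0.44 ± 0.07, Abca5 by 0.17 ± 0.05 and Tap2, the peptide transporter of antigen presentation, by 0.82 ± 0.23 on the log2 scale. Among those that fell, Abcb8 fell by 0.15 ± 0.05 and Abcb9, a lysosomal peptide transporter, by 0.16 ± 0.05 on the log2 scale. Abcb8 and Abcb9 were not called with library size alone or without DS38 replicate 1 or DMSO replicate 2 (highest edgeR adjusted p = 0.113 for Abcb8 and 0.0714 for Abcb9). The number lower in the list was 0 without DS38 replicate 1 and 1 without DMSO replicate 2. Tap2 was not called without replicate 1 of either group (highest edgeR adjusted p = 0.0790). Of 5 xenobiotic-sensing receptors and partners tested of 9, 2 rose and 0 fell (0 lower at an unadjusted edgeR p under 0.05, and 0 with DESeq2 and limma-voom). Keap1, the inhibitor of NRF2, rose by 0.15 ± 0.05 and Rxra, the common partner of nuclear receptors, by 0.09 ± 0.03 on the log2 scale. Keap1 was not called without replicates 1 or 2 of either group (highest edgeR adjusted p = 0.128). Rxra passed in 8 of 15 alternatives. It was not called with DESeq2 or thinning, nor without DS38 replicates 1 or 2 or DMSO replicates 2 or 3 (highest adjusted p = 0.137). The list had 0 higher without DS38 replicate 1, DS38 replicate 2 or DMSO replicate 2. The drug receptors themselves were near 0, Nr1i2 with 9 counts in DS38 and 1 in DMSO and Nr1i3 with 8 in DS38 and 5 in DMSO.

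**Figure D5:**
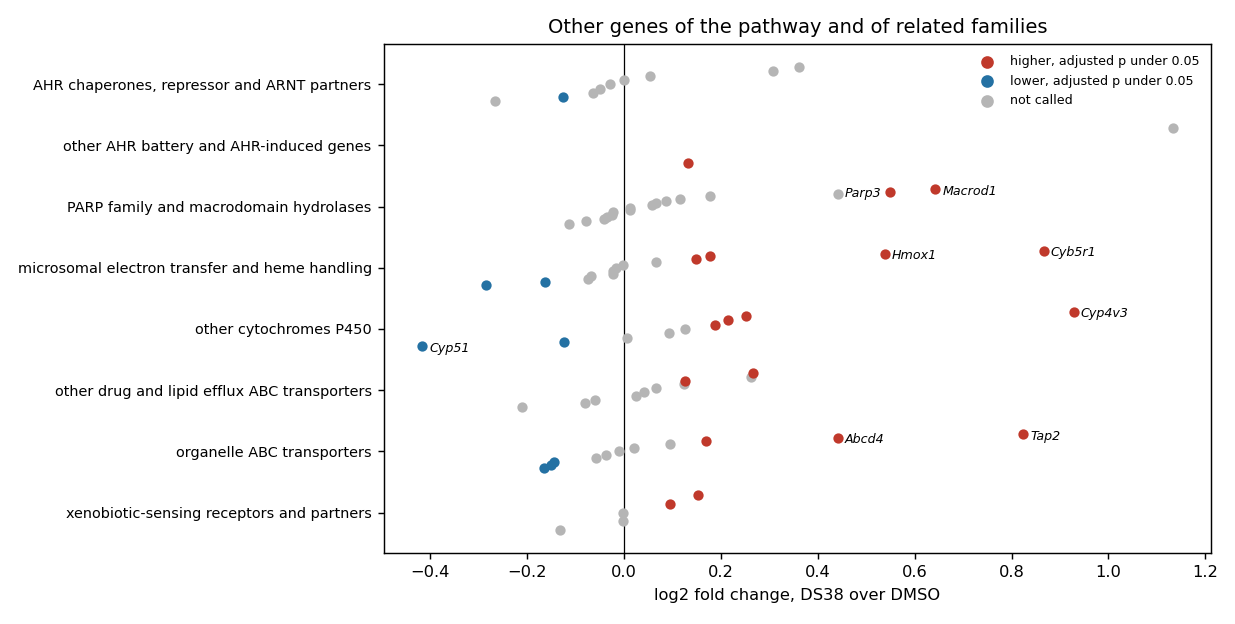
Log2 fold change of DS38 over DMSO (x axis) of each gene tested in the 8 lists, 1 point per gene, red where higher and blue where lower at an edgeR adjusted p under 0.05, with names at called changes beyond 0.4. Within a row the height only spreads the points. Most called genes changed by less than 0.4, and Nqo1 is the uncalled point farthest to the right.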

How the data were processed

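The authors deposited a table of raw read counts per Ensembl gene for 6 libraries, with a gene length in bases (a plain number of another kind, per the file headers). The builds GRCm39 and GRCh38.p13 and the tools featureCounts, edgeR, R 4.1.0, STAR 2.7.9a and Subread 2.0.3 are named per the submitters' processing notes, without role or order. Neither strand setting nor multi-mapping is given in the sources used here.

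Symbols were matched for 52083 of 55416 identifiers. Genes passing filterByExpr (minimum count 10, total 15) numbered 17679. R 4.3.3, edgeR 4.0.16 (TMM, two-sided quasi-likelihood test, group as the sole term), limma 3.58.1, DESeq2 1.42.0, Python 3.11.15, biopython 1.88 and matplotlib 3.10.9 were used, and p-values were adjusted by Benjamini-Hochberg across the 17679 genes, and calls needed an adjusted p under 0.05. An SE is the size of the log2 fold change over the square root of its F. The tests were tested on simulated data. Promoters are RefSeq's on GRCm38.p6, and transcripts and overlaps GENCODE M21's.

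The 10 genes, the 8 pathway lists and the 6 marker lists were chosen with earlier results of these data known. From each pathway list the text names called genes, at most 3 of smallest adjusted p in each direction, with 2 abundant genes per marker list. Some genes that this rule takes are not reported here. Others, such as Hif1a, Nqo1, Ahrr, Abcb4, Col1a1, Atoh1, Barhl1 and Neurod1, were named after their values were seen. Within-group library pairs differed by 2.94 to 3.64 times the chi-square sampling noise per degree of freedom in DS38. In DMSO they differed by 8.62 to 9.65 times that noise. All 6 libraries were therefore kept as separate samples. The labels do not name separate cultures, so a p-value here reflects only how far these samples vary, possibly for technical reasons. Alternatives were DESeq2, limma-voom, RLE scaling, library size alone, no filter, at least 5 CPM in 3 libraries, a replicate block, robust dispersion, thinning and leaving out each library.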

Additional observations from a re-analysis of the deposited data

How the results depend on the processing

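Cyp1b1 and Abcg2 stayed positive and Por and Abcb1b negative in every alternative run. Cyp1b1 missed the threshold with DESeq2 (log2 fold change 0.89) and after thinning (0.84), and its values ran from 0.58 to 1.20 when single libraries were left out. For Abcg2 these ran from 0.74 to 1.22, for Arnt from 0.0403 to 0.0912, for Por from -0.123 to -0.0690, for Abcb1b from -0.276 to -0.102, for Ahr from -0.0864 to 0.228 and for Tiparp from -0.0112 to 0.0232. Arnt passed with library size alone (0.10) and Por with RLE scaling (-0.10) and with at least 5 CPM in 3 libraries (-0.10), a filter that Ahr, Cyp1b1 and Abcg2 did not meet. Of the 10 genes, 1 was called higher with DESeq2, 1 after thinning, 0 with the 5 CPM filter and 0 to 3 with a library left out. The number called lower was 1 with RLE scaling, 1 with the 5 CPM filter and 0 to 1 with a library left out. In the pathway lists 5 fell with library size alone and 5 to 10 with a library left out. The causes were not tested, beyond the smaller samples that leaving out a library makes. Depth limits Cyp1a1, Cyp2s1 and Abcb1a, which had too few counts for a test.

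Same-numbered libraries did not deviate together (r = 0.0488, 0.00576 and -0.0620 for numbers 1 to 3, across genes), and not every library correlated best with its own number. The replicate block changed the calls over all genes to 4010, against 4340 without it, and left 2 of the 10 genes higher and 0 lower. Rxra was not called under the block.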
